A study of Solanum lycopersicum with 12 samples.

Results

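The gene described here is gene18846, annotated as a pectinesterase 1 precursor of tomato, and it is 1 of 22827 genes in the deposited expression table. It was chosen by its identifier, with its expression in these same libraries known, so its own levels, folds and ranks are given as a description and carry no test. Another 55 genes of the table had the word pectinesterase in their annotation, and these serve as its comparison. The RNA came from entire fruits, seeds in development included, taken 5 days post anthesis (DPA). The fruits came from Micro-Tom tomato (*Solanum lycopersicum*), a dwarf laboratory cultivar. Overexpressing plants, named *VvSUC11*-OE, *VvSUC12*-OE or *VvSUC27*-OE, each carried the grapevine sucrose transporter of that name behind the constitutive 35S promoter, and wild-type (WT) plants carried no transgene. Each of the 4 groups was represented by 3 libraries, 12 in all. According to the methods of the study, the *VvSUC11*-OE and *VvSUC12*-OE fruits were of the T1 and the *VvSUC27*-OE fruits of the T0 generation, and 1 line stood for each transgene. Transgene and line cannot be told apart, and neither can transgene and generation for *VvSUC27*-OE fruits. In the study ripe *VvSUC27*-OE fruits were seedless, while at 5 DPA their seeds, which ceased to develop at that age, still looked like those of the other groups.

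Pectinesterases, also called pectin methylesterases, remove methyl groups from homogalacturonan, the main pectin of the plant cell wall. Pectin without methyl groups can be bridged by calcium, which stiffens the wall, or it can be cut by polygalacturonase and pectate lyase, which loosens it. Small inhibitor proteins bind the enzymes in the wall, and many pectinesterases carry a related inhibitor domain in their own precursor. In tomato the fruit isoforms of the enzyme have long been studied for their part in the texture of ripe fruit and in the viscosity of juice. The deposited annotation assigns gene18846 to the cell wall, to pectinesterase activity and to a protein with a pectinesterase domain and an inhibitor domain. Its KEGG identifier is that of the RefSeq gene PE1, which has the older names LePME1 and PME1.9.

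Fruits of the 3 transgenic lines held far more gene18846 mRNA than WT fruits, and the lines themselves stood at separate levels. Levels are given as FPKM, the number of sequenced fragments corrected for the length of the transcript and the size of the library. In *VvSUC11*-OE fruits gene18846 had 996, 1080 and 1089 FPKM. In *VvSUC12*-OE fruits it had 405, 429 and 435 FPKM, and in *VvSUC27*-OE fruits 41.8, 43.0 and 40.3 FPKM. The WT libraries had 0.770, 0.403 and 0.729 FPKM. The *VvSUC11*-OE libraries were thus the highest and the WT libraries the lowest, and no library of one group overlapped with a library of another. In the second unit of the table, counts that the authors had scaled to a common library size, the gene had 39065, 42256 and 42048 counts in *VvSUC11*-OE fruits. It had 15451, 16308 and 16492 scaled counts in *VvSUC12*-OE fruits, and in *VvSUC27*-OE fruits it had 1598, 1661 and 1546. In WT fruits it had 29, 15 and 27. The WT level therefore rested on few counts but was above 0 in each library.

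**Figure D1:**
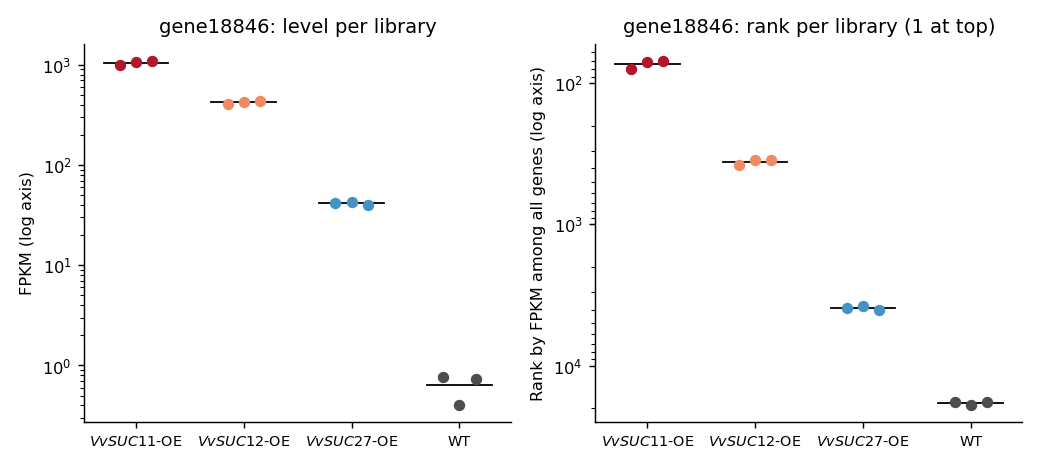
Left, FPKM of gene18846 in each library on a log axis; right, its rank by FPKM among the 22827 genes, with rank 1 at the top of a log axis. Each point is a library and each line the mean of the 3 libraries of a group. The 4 groups occupy separate levels, with *VvSUC11*-OE at a mean of 1055 FPKM and the WT at 0.634 FPKM.

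The mean level was 1055 ± 50.9 FPKM in *VvSUC11*-OE fruits, 423 ± 15.7 FPKM in *VvSUC12*-OE fruits and 41.7 ± 1.34 FPKM in *VvSUC27*-OE fruits, against 0.634 ± 0.201 in WT fruits (SD, n = 3 each). Relative to the WT mean this was 1664-fold in *VvSUC11*-OE, 667-fold in *VvSUC12*-OE and 65.8-fold in *VvSUC27*-OE fruits. Within a transgenic group the SD was 3.22% to 4.83% of the mean, while in the WT it was 31.7%, with the highest WT library 1.91 times the lowest. The neighbouring groups in the order of levels were separated by more than their spread. The lowest *VvSUC11*-OE library was 2.29 times the highest *VvSUC12*-OE library, the lowest *VvSUC12*-OE library 9.42 times the highest *VvSUC27*-OE library, and the lowest *VvSUC27*-OE library 52.4 times the highest WT library. The *VvSUC27*-OE mean was 0.0396 times the *VvSUC11*-OE mean and 0.0987 times the *VvSUC12*-OE mean, and the *VvSUC12*-OE mean was 0.401 times the *VvSUC11*-OE mean. In whole fruits, more cells that express a gene and more mRNA per cell cannot be told apart.

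The gene moved through most of the table's range of expression between the groups. By FPKM it ranked 80, 71 and 70 among the 22827 genes in the *VvSUC11*-OE libraries. It ranked 381, 352 and 353 in the *VvSUC12*-OE libraries and 3909, 3793 and 4039 in the *VvSUC27*-OE libraries. In the WT libraries it ranked 17991, 18960 and 18055. The ranks of a group lay close together and did not reach those of another group. By scaled count, which does not correct for transcript length, its ranks were higher up the table, 24, 20 and 20 in *VvSUC11*-OE, 95, 89 and 85 in *VvSUC12*-OE, 3100, 2959 and 3167 in *VvSUC27*-OE and 17263, 18172 and 17310 in WT libraries. Its share of all scaled counts was 0.189% to 0.205% in *VvSUC11*-OE libraries. Among the fitted log2 fold changes (log2FC) of log2(scaled count + 1), that of gene18846 was the highest of 19128 genes in *VvSUC11*-OE against WT fruits (10.76) and the highest of 18900 genes in *VvSUC12*-OE against WT fruits (9.40). In *VvSUC27*-OE against WT fruits it was 6.07, the 16th highest of 18871 genes.

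Of 19451 genes with enough counts over the 12 libraries, 254 had the same order as gene18846, with every *VvSUC11*-OE library above every *VvSUC12*-OE library, these above every *VvSUC27*-OE library and these above every WT library. This is 1.31% of the genes, and nothing about gene18846 is read from it, since the gene was chosen with its pattern known. Among the 55 other pectinesterase-annotated genes, 1 had this order, gene18847.

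Within its own family gene18846 was the most abundant transcript in *VvSUC11*-OE fruits and one of the scarcer ones in WT fruits. By FPKM it was in place 1 of the 56 pectinesterase-annotated genes in each *VvSUC11*-OE library, place 3 in each *VvSUC12*-OE library, place 5 or 6 in the *VvSUC27*-OE libraries and place 29 to 34 in the WT libraries. It made up 39.1 ± 0.829% of the summed FPKM of the 56 genes in *VvSUC11*-OE fruits, 20.03 ± 0.446% of it in *VvSUC12*-OE fruits and 3.22 ± 0.108% of it in *VvSUC27*-OE fruits, against 0.0416 ± 0.0132% in WT fruits (SD, n = 3 each). The other 55 genes together had 1613 to 1668 FPKM in the *VvSUC11*-OE, 1671 to 1708 in the *VvSUC12*-OE and 1248 to 1268 in the *VvSUC27*-OE libraries, against 1509 to 1534 FPKM in the WT libraries. The sum of the other genes thus differed far less between the groups than gene18846 did. Its ranges did not overlap with that of the WT in any line, and it was above the WT in *VvSUC11*-OE and *VvSUC12*-OE and below it in *VvSUC27*-OE fruits.

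**Figure D2:**
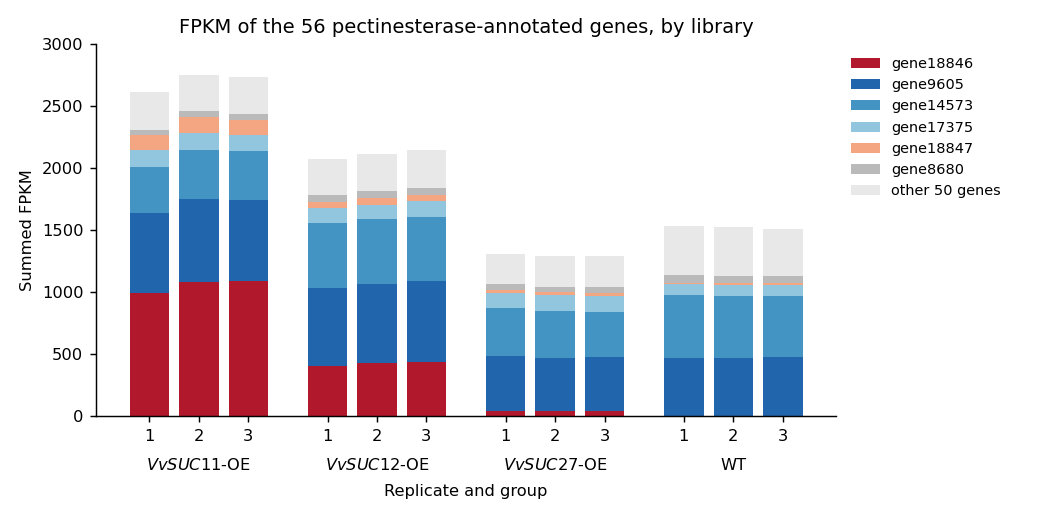
Summed FPKM of the 56 pectinesterase-annotated genes in each of the 12 libraries, stacked by gene, with the 50 genes of lower mean level drawn as 1 block. The block of gene18846 fills 38.2% to 39.8% of the bars of *VvSUC11*-OE fruits and is not visible in the WT bars, where gene9605 and gene14573 are the largest blocks.

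The genes that led the family in the other groups varied less. gene9605, the precursor of the tomato isoform PMEU1, which is known for being expressed throughout the plant, had 656 ± 16.2 FPKM in *VvSUC11*-OE fruits, 639 ± 11.5 FPKM in *VvSUC12*-OE fruits and 438 ± 9.62 FPKM in *VvSUC27*-OE fruits, against 471 ± 3.07 in WT fruits (SD, n = 3 each). gene14573, annotated only as pectinesterase, had 388 ± 10.7, 522 ± 1.15 and 377 ± 13.5 FPKM in the 3 lines in the same sequence, against 500 ± 2.94 FPKM in WT fruits. gene17375, a PPE8B isoform with an inhibitor domain, had a mean of 135 FPKM in *VvSUC11*-OE fruits, 120 FPKM in *VvSUC12*-OE fruits and 123 FPKM in *VvSUC27*-OE fruits, against 90.1 in WT fruits. gene8680, a putative pectinesterase with an inhibitor domain, had means of 45.5, 56.2 and 43.5 FPKM in the lines, against 58.4 FPKM in the WT. For these 4 genes the fitted log2FC against the WT stayed between -0.45 and 0.57 in every line, short of the threshold for a differentially expressed gene (DEG). A DEG had a Benjamini-Hochberg adjusted p under 0.01 in limma's test across all genes and an absolute log2FC above 1, the thresholds that the study used.

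The gene next to gene18846 in the table, gene18847, showed the same order of groups at lower levels and with smaller folds. It is annotated as pectinesterase 2.1 and carries the KEGG identifier of the RefSeq gene PME2.1, the next protein-coding gene after PE1 in the RefSeq annotation. gene18847 had 121, 128 and 119 FPKM in *VvSUC11*-OE fruits, 49.3, 55.0 and 51.7 FPKM in *VvSUC12*-OE fruits and 27.9, 25.7 and 29.0 FPKM in *VvSUC27*-OE fruits. The WT libraries had 13.2, 15.8 and 13.02 FPKM. As for gene18846, no library of one group overlapped with another group. Against the WT, the log2FC of gene18847 was 3.16 ± 0.0639 (SE) in *VvSUC11*-OE fruits (limma adjusted p = 9.8e-15) and 1.90 ± 0.0642 in *VvSUC12*-OE fruits (limma adjusted p = 4.18e-14), a DEG in both. In *VvSUC27*-OE fruits it was 0.99 ± 0.0695 (limma adjusted p = 1.36e-09), just short of the fold threshold. Without *VvSUC27*-OE replicate 2 or without WT replicate 2, this value was 1.03 and 1.08, past the threshold. Between the lines, gene18847 was lower in *VvSUC12*-OE than in *VvSUC11*-OE fruits (log2FC -1.27, limma adjusted p = 9.01e-15) and lower in *VvSUC27*-OE than in *VvSUC11*-OE fruits (log2FC -2.18, limma adjusted p = 1.68e-16). Between *VvSUC27*-OE and *VvSUC12*-OE fruits its log2FC was -0.91, short of the fold threshold.

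The genes on either side of this pair did not have the pattern. gene18848, annotated as pectinesterase 3 and the third of 3 consecutive pectinesterase genes in the table, had at most 0.0776 FPKM in any library. gene18849, a COBRA-like protein 10, whose *Arabidopsis* counterpart acts in pollen tube growth, had at most 0.0888 FPKM. Neither had enough counts to be tested. On the other side, gene18845, a thiamine thiazole synthase that makes the thiazole part of vitamin B1, had means of 2278 FPKM in *VvSUC11*-OE fruits, 2021 FPKM in *VvSUC12*-OE fruits and 933 FPKM in *VvSUC27*-OE fruits, against 1456 FPKM in WT fruits. gene18844, a homologue of the translation initiation factor SUI1, had means of 1587, 866 and 657 FPKM in the lines, against 761 in the WT, and gene18842, a polyubiquitin, had 1901, 1665 and 1504 against 1664 FPKM. None of the 3 was a DEG against the WT in the main fit. The closest was gene18844 in *VvSUC11*-OE fruits, at a log2FC of 0.996, just short of the fold threshold. It was a DEG with equal library totals (1.03), with median-of-ratios scaling (1.01) and on log2(FPKM + 1) (1.06). It also passed 1 without *VvSUC11*-OE replicate 3 (1.01) or WT replicate 3 (1.03). Genes of like sequence such as gene18846, gene18847 and gene18848 may share reads, and the part of such reads in these values was not tested.

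**Figure D3:**
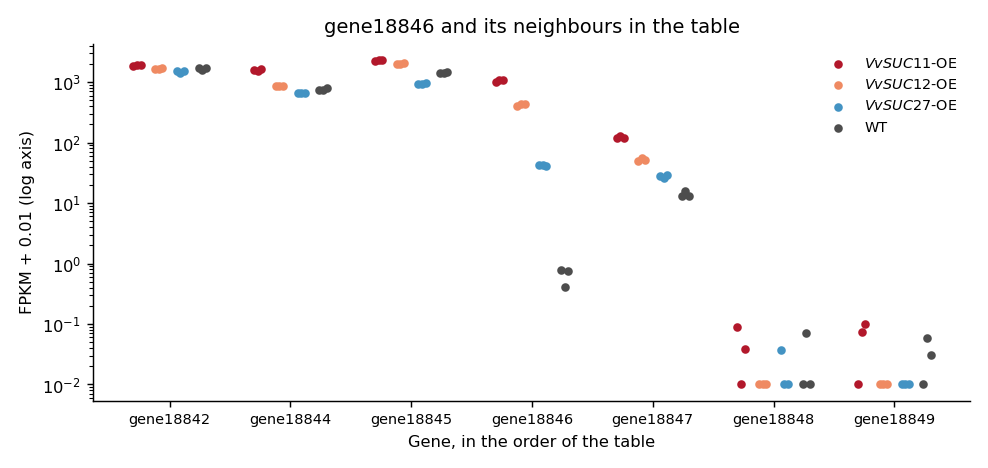
FPKM + 0.01 on a log axis of gene18846 and the 3 genes before and after it in the table, in table order; each point is a library, coloured by group. The levels of gene18846 and gene18847 step down from *VvSUC11*-OE to the WT, the genes before them stay between 648 and 2301 FPKM, and those after them stay under 0.1 FPKM.

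Most other pectinesterase-annotated genes that were DEGs in the transgenic fruits were lower than in the WT, many of them at low abundance. Of the 55 genes, 37 had at least 10 scaled counts in 3 of the 12 libraries, and 36 (*VvSUC11*-OE), 36 (*VvSUC12*-OE) and 35 (*VvSUC27*-OE) of them could be tested against the WT. In *VvSUC11*-OE fruits 4 genes were higher and 13 lower as DEGs, 47.2% of those tested, while 14.7% of all tested genes were DEGs (7.39% higher and 7.33% lower). In *VvSUC12*-OE fruits 2 were higher and 7 lower, or 25%, against 8.6% of all tested genes (3.31% higher and 5.3% lower). In *VvSUC27*-OE fruits 0 were higher and 8 lower, or 22.9%, against 11% of all tested genes (3.8% higher and 7.21% lower). The median log2FC over the tested pectinesterase genes was -0.29, 0.03 and -0.27, and that over all tested genes -0.03, -0.01 and 0.00. The 3 comparisons share the WT libraries. The lower genes include, in each line, 2 genes annotated as inhibitors only, and without these 11, 5 and 6 were lower. In each line these 2 inhibitors and gene1998, gene30170 and gene5686 reached the counts needed for a test in the WT libraries alone. With few or no counts in the line, a call of lower was then likely from the start. The shares of DEGs given here are therefore not read as a result about the family. With genes of a mean under 50 scaled counts left out, the 17, 9 and 8 DEGs became 7, 4 and 3, so many of them were of low abundance. Of the DEGs left, 4, 2 and 3 were lower, so lower genes were no longer a majority in *VvSUC12*-OE fruits.

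Besides gene18847, 3 pectinesterase genes rose in *VvSUC11*-OE fruits, and all were far less abundant than gene18846. gene29606, a probable pectinesterase 29, had 18.4, 14.2 and 18.03 FPKM in *VvSUC11*-OE and 3.92, 4.87 and 5.26 FPKM in *VvSUC12*-OE fruits. It had 1.01, 2.12 and 1.05 FPKM in *VvSUC27*-OE fruits, against 1.27, 0.791 and 0.694 in WT fruits. It was a DEG in *VvSUC11*-OE (log2FC 4.18 ± 0.215, limma adjusted p = 2.63e-10) and *VvSUC12*-OE fruits (log2FC 2.35 ± 0.246, limma adjusted p = 2.82e-07), while the *VvSUC27*-OE and WT libraries overlapped. gene7789, a probable pectinesterase with an inhibitor domain, had a mean of 2.69 FPKM in *VvSUC11*-OE fruits, against 0.284 in WT fruits (log2FC 3.14, limma adjusted p = 1.78e-08). gene24450, pectinesterase-like, had 20, 35 and 29 scaled counts in *VvSUC11*-OE fruits, against 2, 1 and 0 in WT fruits (limma adjusted p = 4.88e-06), but on log2(FPKM + 1) its difference was 0.86, short of the threshold. In *VvSUC11*-OE against WT fruits gene24450 reached the counts needed for a test in *VvSUC11*-OE libraries alone, so its call of higher was likely from the start. In the other lines gene7789 was not a DEG against the WT, and gene24450 had too few counts to be tested there.

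Inhibitor genes aside, the most abundant pectinesterase gene that fell was gene9604, a pectinesterase 3, and it fell in *VvSUC11*-OE fruits, where it had 33.3 ± 0.717 FPKM, against 70.5 ± 1.99 in WT fruits (log2FC -1.12, limma adjusted p = 1.96e-12). In *VvSUC12*-OE fruits it had 51.2 ± 3.53 and in *VvSUC27*-OE fruits 37.5 ± 1.49 FPKM (SD, n = 3), with log2FC of -0.51 and -0.92 against the WT. gene20836, a probable pectinesterase 68, had means of 3.07 FPKM in *VvSUC11*-OE fruits, 15.4 FPKM in *VvSUC12*-OE fruits and 5.24 FPKM in *VvSUC27*-OE fruits, against 11.1 in WT fruits. It was lower as a DEG in *VvSUC11*-OE (log2FC -1.89) and *VvSUC27*-OE fruits (log2FC -1.08), but without *VvSUC27*-OE replicate 2 or on log2(FPKM + 1) the second value was -0.99 or -0.96, short of the threshold. gene1998, a pectinesterase 2, fell in every line. It had 0.175 FPKM in *VvSUC11*-OE fruits, 0.0263 FPKM in *VvSUC12*-OE fruits and 0.0991 FPKM in *VvSUC27*-OE fruits on average, against 4.19 FPKM in WT fruits. gene30170, a putative pectinesterase with an inhibitor domain, was at 0 in all *VvSUC11*-OE and *VvSUC27*-OE libraries and at 0.287 FPKM on average in *VvSUC12*-OE fruits, against 3.61 in WT fruits. Set against a floor of 3 scaled counts per library, it was at least 15.1-fold lower in *VvSUC11*-OE and *VvSUC27*-OE fruits. gene5686, annotated in the same way, was at 0 in all 9 transgenic libraries, against 1.03 FPKM in the WT, at least 5.22-fold lower in each line. gene23275, another probable pectinesterase 29, fell in every line too, with 0.285, 0.0978 and 0.332 FPKM in the lines, against 1.63 FPKM in the WT. With no filter on low counts gene23275 lost its calls in *VvSUC12*-OE and *VvSUC27*-OE fruits, and on log2(FPKM + 1) that in *VvSUC27*-OE fruits (-0.96). The bounds given above cover counting error only.

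Inhibitors of the enzyme were measured as well, and the 2 that could be tested fell in every line. newGene_228, a pectinesterase inhibitor-like gene assembled by the authors (Solanum_lycopersicum_newGene_228 in the table), had 0, 1 and 0 scaled counts in *VvSUC11*-OE, 0, 0 and 1 in *VvSUC12*-OE and 0 in all *VvSUC27*-OE libraries. The WT libraries had 407, 437 and 377 scaled counts, or 79.1, 78.6 and 71.4 FPKM. The gene was thus almost without counts in 9 libraries and among the 4 most abundant pectinesterase-annotated genes in the WT, and it was at least 136-fold lower in *VvSUC27*-OE than in WT fruits (limma adjusted p = 1.8e-14). gene1019, also annotated as pectinesterase inhibitor-like, was at 0 in all 9 transgenic libraries, against 8.35, 9.95 and 8.38 FPKM in WT fruits, at least 11.4-fold lower in each line. Both newGene_228 and gene1019 reached the counts needed for a test in the WT libraries alone, so a call of lower was likely from the start. Their values are thus a description of these levels. The other 3 inhibitor genes had too few counts to be tested. In the WT the order was therefore the reverse of that in the transgenic fruits, with newGene_228 at 76.4 ± 4.30 FPKM and gene18846 at 0.634 ± 0.201 FPKM (SD, n = 3 each).

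The remaining DEGs of the family had at most 1.96 FPKM on average in any group. In *VvSUC11*-OE fruits gene1310, gene1421, gene22846, gene25762 and gene5345 were lower than in the WT. On log2(FPKM + 1) all 5 lost these calls, with differences of -0.65 (gene1310), -0.62 (gene1421), -0.53 (gene22846), -0.42 (gene25762) and -0.54 (gene5345), and with no filter on low counts gene1421, gene22846 and gene5345 lost them. gene1310 was at 0 scaled counts in all *VvSUC11*-OE libraries, at least 3.89-fold lower than in WT fruits. gene1421, a probable pectinesterase 53, was a DEG in *VvSUC11*-OE (log2FC -1.89) and *VvSUC12*-OE fruits (log2FC -1.03). Its call in *VvSUC11*-OE fruits was lost without *VvSUC11*-OE replicate 1 or 3 or WT replicate 2 or 3, with values of -1.44 to -1.94, and its call in *VvSUC12*-OE fruits was lost without any of 5 of the 6 libraries, *VvSUC12*-OE replicate 2 being the exception, with values of -0.89 to -1.08. The second call was also lost with a pseudocount of 5 (-0.88), with equal library totals (-0.99), with no filter, on log2(FPKM + 1) (-0.43) and with all 12 libraries in 1 fit. gene22846, pectinesterase-like, was a DEG in *VvSUC11*-OE (log2FC -1.14) and *VvSUC27*-OE fruits (log2FC -1.38). It also lost the first call without *VvSUC11*-OE replicate 2 (-0.87) or WT replicate 1 (-1.07), and the second without *VvSUC27*-OE replicate 2 (-1.07) or any WT library (-1.32 to -1.43), with no filter and on log2(FPKM + 1) (-0.61).

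**Figure D4:**
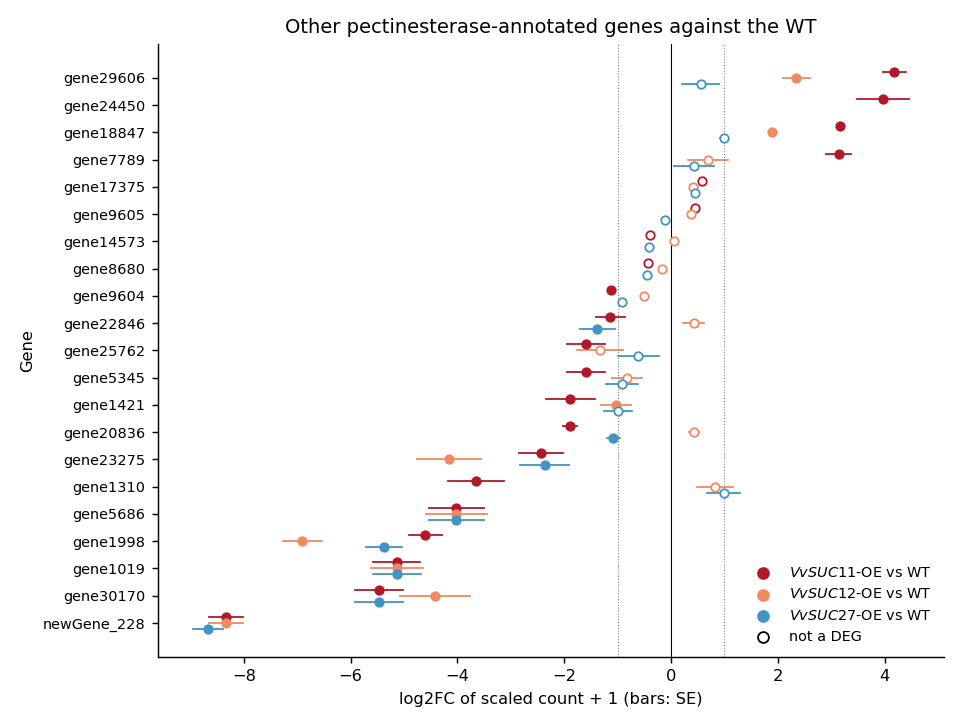
Fitted log2FC of scaled count + 1 against the WT, with its SE, for the 21 named pectinesterase-annotated genes other than gene18846 that were tested in *VvSUC11*-OE fruits. Filled points are DEGs, open points are tested genes that were not DEGs, and dotted lines mark a log2FC of -1 and 1. The 4 genes that rose lie at the top, and the 2 inhibitors, newGene_228 and gene1019, lie among the lowest 3.

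Between the lines fewer pectinesterase genes differed than between the *VvSUC11*-OE fruits and the WT (47.2% of those tested). The sets tested differ, however. Genes with enough counts in the WT alone, among them newGene_228, gene1019, gene1998, gene30170 and gene5686, could not be tested between the lines. The part of this in the lower shares was not tested. The share in *VvSUC12*-OE against *VvSUC11*-OE fruits (31%) was above those of *VvSUC12*-OE (25%) and *VvSUC27*-OE fruits (22.9%) against the WT. For *VvSUC27*-OE fruits the share was 17.9% against *VvSUC11*-OE and 13.8% against *VvSUC12*-OE fruits. In *VvSUC12*-OE against *VvSUC11*-OE fruits 4 of 29 tested genes were higher and 5 lower, where 10.2% of all tested genes were DEGs (4.74% higher and 5.51% lower). In *VvSUC27*-OE against *VvSUC11*-OE fruits 1 of 28 was higher and 4 were lower (10.7% of all were DEGs, 3.67% higher and 6.99% lower), and in *VvSUC27*-OE against *VvSUC12*-OE fruits 0 of 29 were higher and 4 lower (6.8% of all were DEGs, 2.64% higher and 4.16% lower). gene29606 was the 1 gene of the family, gene18846 aside, that was a DEG in all 3 of these comparisons. It was lower in *VvSUC12*-OE than in *VvSUC11*-OE (log2FC -1.83), in *VvSUC27*-OE than in *VvSUC11*-OE (log2FC -3.63) and in *VvSUC27*-OE than in *VvSUC12*-OE fruits (log2FC -1.80), the last of which was lost with no filter on low counts.

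Pectin is also handled by other enzymes of the wall, and their genes are given by their counts, with no test of a difference from the pectinesterases. Polygalacturonases cut the demethylated chain, but the genes so annotated include non-catalytic subunits, such as gene12215, which was higher as a DEG in every line. Of the genes with this annotation, 9 of 27 tested were higher and 1 lower in *VvSUC11*-OE, 3 of 26 higher and 1 lower in *VvSUC12*-OE, and 3 of 25 higher and 1 lower in *VvSUC27*-OE than in WT fruits. Of the pectate lyase genes, which cleave the same chain by elimination, 4 of 14 were higher and 0 lower in *VvSUC11*-OE, 1 of 13 higher and 1 lower in *VvSUC12*-OE, and 3 of 13 higher and 0 lower in *VvSUC27*-OE fruits. Rhamnogalacturonate lyase genes, which act on the branched pectin, gave 0 of 6 higher and 1 lower, 0 of 5 either way, and 0 of 5 higher and 1 lower in the 3 lines. Of the galacturonosyltransferase genes, which build the chain, 3 of 23 were higher and 2 lower in *VvSUC11*-OE, 0 higher and 2 lower in *VvSUC12*-OE, and 1 higher and 1 lower in *VvSUC27*-OE fruits. Invertase inhibitors, relatives of the pectinesterase inhibitors that act on the sucrose-cleaving enzyme, were 3 genes, of which 1 was higher in each line and 1 lower in *VvSUC12*-OE and *VvSUC27*-OE fruits. These counts are to be read against the shares of all tested genes. Of these, 7.39% were higher and 7.33% lower as DEGs in *VvSUC11*-OE, 3.31% and 5.3% in *VvSUC12*-OE and 3.8% and 7.21% in *VvSUC27*-OE fruits.

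The genes whose pattern over the 12 libraries was most like that of gene18846 were found by Pearson's r of log2(scaled count + 1) among the 19451 genes. The 12 points are 3 libraries from each of 4 groups, so r mainly compares 4 group levels, and it is given as a description. The highest r was that of gene8862 (r = 0.996), an alpha-1,4-glucan-protein synthase, a family that supplies activated arabinose to wall polysaccharides. gene12215 followed (r = 0.992), the non-catalytic subunit AroGP2 of polygalacturonase, a wall protein that binds the catalytic enzyme. After them came gene2018, an uncharacterized protein (r = 0.991), gene14704, an UPSTREAM OF FLC-like protein (r = 0.990), and gene20110, a vacuolar-processing enzyme-like protease (r = 0.990). Of these 5 genes, 2 were also among the first 5 by Pearson's r of log2(FPKM + 1) and 0 by Spearman's rho, so the choice depends on the measure.

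Within this set only gene12215 and gene20110 spanned a wide range. gene12215 had 50.8, 53.3 and 49.2 FPKM in *VvSUC11*-OE, 17.9, 15.9 and 16.7 in *VvSUC12*-OE and 4.38, 4.69 and 4.11 in *VvSUC27*-OE fruits, against 0.333, 0.362 and 0.361 FPKM in WT fruits. gene20110 had 6.72 ± 0.587 FPKM in *VvSUC11*-OE fruits, 3.17 ± 0.374 FPKM in *VvSUC12*-OE fruits and 0.766 ± 0.136 FPKM in *VvSUC27*-OE fruits, against 0.0124 ± 0.0215 in WT fruits (SD, n = 3 each). Both kept the order of gene18846 without overlap, as did gene8862 and gene2018, while gene14704 did not. Apart from gene12215 and gene20110, the genes of the set varied much less. gene8862 had means of 278 FPKM in *VvSUC11*-OE fruits, 253 FPKM in *VvSUC12*-OE fruits and 170 FPKM in *VvSUC27*-OE fruits, against 103 in WT fruits, gene2018 had 44.6, 39.3 and 29.0 against 16.6 FPKM, and gene14704 had 10.2, 9.67 and 6.99 against 4.83 FPKM. Among the pectinesterases, the highest r was that of gene18847 (r = 0.933), in place 197 of all genes.

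**Figure D5:**
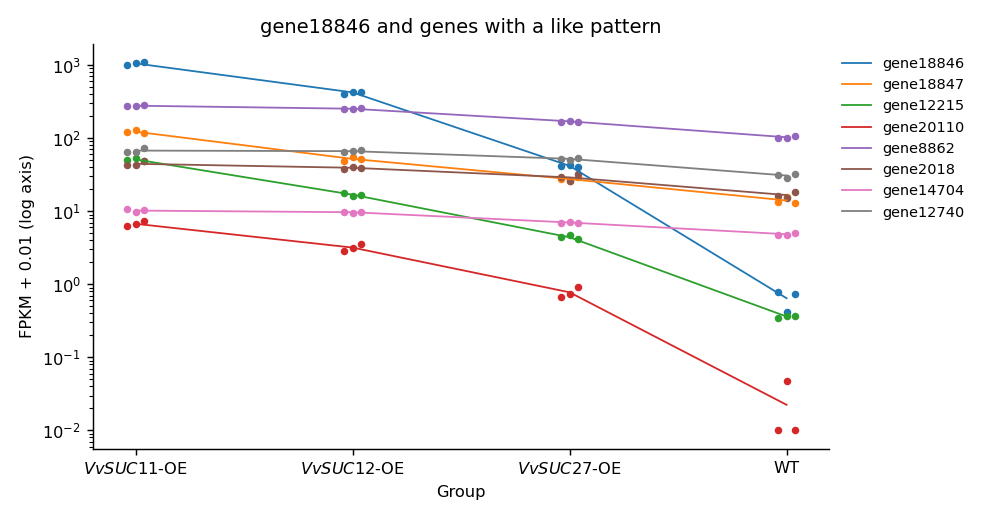
FPKM + 0.01 on a log axis in the 4 groups for gene18846, its neighbour gene18847, the 5 genes of highest Pearson's r and the ripening regulator gene12740. Points are libraries and lines join the group means. The lines of gene18846, gene12215 and gene20110 slope steeply down to the WT, while gene8862, gene2018, gene14704 and gene12740 change less.

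gene18846 is known as a fruit pectinesterase, and 13 genes matched by names of ripening were therefore listed with it. Of these, 10 could be tested in *VvSUC11*-OE fruits, where 3 were higher and 1 lower than in the WT, 10 in *VvSUC12*-OE fruits, where 2 were higher and 0 lower, and 9 in *VvSUC27*-OE fruits, where 0 were DEGs. Over all tested genes 7.39% were higher and 7.33% lower as DEGs in *VvSUC11*-OE, 3.31% and 5.3% in *VvSUC12*-OE and 3.8% and 7.21% in *VvSUC27*-OE fruits. gene25136, among the higher genes of *VvSUC11*-OE and *VvSUC12*-OE fruits, reached the counts needed for a test in these lines alone. Its calls of higher were therefore likely from the start, and it could not be tested in *VvSUC27*-OE against WT fruits. gene12740, the MADS-box regulator RIN that is required for ripening, had means of 67.6 FPKM in *VvSUC11*-OE fruits, 66.4 FPKM in *VvSUC12*-OE fruits and 52.1 FPKM in *VvSUC27*-OE fruits, against 30.8 in WT fruits. It was a DEG in *VvSUC11*-OE (log2FC 1.11, limma adjusted p = 3.43e-10) and *VvSUC12*-OE fruits (log2FC 1.09, limma adjusted p = 6.35e-12), and its log2FC in *VvSUC27*-OE fruits was 0.76. In the likeness to gene18846 it was in place 11 (r = 0.987) on log2(scaled count + 1). By Pearson's r of log2(FPKM + 1) it was in place 30, and by Spearman's rho in place 549. Its *VvSUC11*-OE and *VvSUC12*-OE libraries overlapped. gene25136, the precursor of polygalacturonase-2, the main polygalacturonase of ripe tomato, had 1.60 ± 0.146 FPKM in *VvSUC11*-OE fruits and 0.685 ± 0.213 FPKM in *VvSUC12*-OE fruits (SD, n = 3 each) and was at 0 in all *VvSUC27*-OE and WT libraries. Against the floor of 3 scaled counts per library its level was at least 15.4-fold that of the WT in *VvSUC11*-OE fruits and at least 6.44-fold that of the WT in *VvSUC12*-OE fruits, where its call was lost on log2(FPKM + 1) (0.74). gene7166, phytoene synthase 1, which starts carotenoid synthesis in ripening fruit, was a DEG in *VvSUC11*-OE fruits alone, with 64.6 ± 1.97 FPKM, against 28.8 ± 0.559 in WT fruits (log2FC 1.22, limma adjusted p = 1.01e-12). In the other lines it had 29.0 FPKM in *VvSUC12*-OE and 39.9 FPKM in *VvSUC27*-OE fruits. gene11491, the ripening regulated protein DDTFR18, was the 1 gene that was lower, with 4.84 FPKM in *VvSUC11*-OE, against 10.8 in WT fruits (log2FC -1.14).

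The other genes with ripening names were not DEGs against the WT or had too few counts to be tested. gene11337 (DDTFR8), gene17342 (DDTFR10) and gene29701 (DDTFR19) had log2FC of -0.21 to 0.98 against the WT. The highest of these, gene11337 in *VvSUC12*-OE fruits, passed 1 without WT replicate 2 (1.03), with equal library totals (1.02) and on log2(FPKM + 1) (1.03). gene2205, the ethylene-forming 1-aminocyclopropane-1-carboxylate synthase 2, and gene8193, a homologue of the ethylene-responsive gene E8, had at most 0.293 FPKM in any library. gene18098, annotated as fruit-specific protein, had 21250 to 42230 FPKM over the 12 libraries, and its log2FC against the WT was 0.60 (*VvSUC11*-OE), 0.05 (*VvSUC12*-OE) and -0.19 (*VvSUC27*-OE).

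Genes named for other tissues of a whole fruit were set beside these values. Of 39 genes of seed storage, oleosins and late embryogenesis, 12 of 19 tested were higher and 0 lower in *VvSUC11*-OE than in WT fruits, 1 of 8 higher and 1 lower in *VvSUC12*-OE, and 0 of 8 higher and 4 lower in *VvSUC27*-OE fruits. Of all tested genes, 7.39% were higher in *VvSUC11*-OE, 5.3% lower in *VvSUC12*-OE and 7.21% lower in *VvSUC27*-OE fruits. The genes tested in *VvSUC11*-OE fruits alone needed counts there to pass the filter, so a call of higher was likely from the start. The 12 of 19 is therefore not set against the counts of 8. The summed level of the 39 genes was 480 to 563 FPKM in *VvSUC11*-OE, 569 to 642 in *VvSUC12*-OE and 279 to 283 in *VvSUC27*-OE libraries, against 542 to 562 FPKM in WT libraries, and gene2212, a late embryogenesis-like protein, made up most of it. At 0 scaled counts in all libraries of their group were 3 of the 39 genes in *VvSUC11*-OE fruits, 19 genes in *VvSUC12*-OE fruits, 19 genes in *VvSUC27*-OE fruits and 9 genes in WT fruits. The summed level mainly reflects gene2212 (315, 368 and 201 FPKM in the lines, 339 FPKM in the WT). It does not stand for the other genes of the list or for the amount of seed tissue. Of 27 genes named for pollen or anthers, 1 of 18 tested was higher and 2 lower in *VvSUC11*-OE, and 0 were higher and 1 lower in each of the other lines, to be read against the same shares of all genes. Their sum was 2509 to 2534 FPKM in *VvSUC11*-OE, 2476 to 2549 in *VvSUC12*-OE and 2282 to 2307 in *VvSUC27*-OE libraries, against 2235 to 2301 in WT libraries. The part of seed or pollen tissue in the levels of gene18846 was not tested.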

How the data were processed

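RNA-seq of 12 libraries (4 groups of 3) was described from the deposited table of 22827 genes. The authors mapped reads with TopHat2 to the tomato genome build SL2.50 and computed FPKM with cuffnorm, and both FPKM and a count were deposited per library. The deposited counts are not read numbers but a signal: the authors had scaled them to a common size and rounded them, and they sum to 20530052 to 21795363 per library. Columns of the authors' own comparisons (EBSeq FDR and log2 fold changes) and tables repeating parts of the full table were not used.

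Differences were tested in R 4.3.3 with limma 3.58.1 (lmFit, eBayes with trend). Tables were read with the package data.table, version 1.17.8. The fit used log2(scaled count + 1) and the 6 libraries of the 2 groups compared. A gene was tested if 3 or more of them held 10 scaled counts, with Benjamini-Hochberg adjustment over all tested genes. A gene could thus pass through the libraries of 1 group alone, and with few counts in the other group it was then likely to be called. Count models had no place, since the values are scaled. The procedure was tested on simulated data. The replicates are described as biological, but each line gives 1 genotype, so p-values measure the spread between these samples only. A fold against a group at 0 uses a floor of 3 scaled counts per library, and such limits cover counting error only. In genes of high count, the median squared difference of a replicate pair was 1.62 to 2.68 times that of counting alone. No library was therefore counted as a duplicate.

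Named genes were gene18846, pectinesterase-annotated DEGs against the WT and the 5 such genes of highest mean FPKM, the 3 genes before and after gene18846, the 5 of most like pattern and the ripening list. Lists were made by words in the annotation. The ripening words also took gene11228 (E4/E8 binding protein-1) and gene6121 (ubiquitin conjugation factor E4), which carry no ripening role by name. The gene, the lists and the tests were chosen with earlier results of these data known. Alternatives were other pseudocounts, filters, scalings, FPKM in place of scaled counts, all 12 libraries in 1 fit, a replicate block, and each library left out. RefSeq (assembly SLM_r2.1) was used for names and neighbours only. Promoter and protein sequences were not used here.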

Additional observations from a re-analysis of the deposited data

Results flagged for a closer look

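Differences between 2 transgenic lines, tested directly with limma on the same scale, stood out for several genes set beside gene18846. In *VvSUC12*-OE against *VvSUC11*-OE fruits, the pectinesterase genes gene1310 (log2FC 4.48), gene20836 (2.32), gene5346 (2.0) and gene22846 (1.56) were higher, and gene17941 (-1.10), gene18847 (-1.27), gene29606 (-1.83), gene7789 (-2.45) and gene24450 (-2.82) were lower. Of the ripening genes, gene11491 was higher (1.27) and gene7166 (-1.20) and gene25136 (-1.26) were lower in the same comparison. In *VvSUC27*-OE against *VvSUC11*-OE fruits, gene1310 was higher (4.65), and gene18847 (-2.18), gene7789 (-2.71), gene29606 (-3.63) and gene24450 (-4.82) were lower. Lower were also the neighbours gene18844 (-1.23) and gene18845 (-1.28) and the polygalacturonase gene25136 (-5.56). In *VvSUC27*-OE against *VvSUC12*-OE fruits, gene5346 (-1.35), gene20836 (-1.51), gene29606 (-1.80) and gene22846 (-1.81) of the pectinesterases were lower, as were gene18845 (-1.07), gene25136 (-4.30) and gene11491 (-1.01). The value of gene11491 lost its call without *VvSUC12*-OE replicate 3 (-0.998) or *VvSUC27*-OE replicate 2 (-0.91). It also lost it with a pseudocount of 5 (-0.99) and on log2(FPKM + 1) (-0.92). On log2(FPKM + 1) gene22846 (0.82 and -0.91) and gene24450 (-0.80 and -0.98) lost both their calls. There gene25136 lost that in *VvSUC12*-OE against *VvSUC11*-OE (-0.63) and that in *VvSUC27*-OE against *VvSUC12*-OE fruits (-0.745). With no filter on low counts, gene22846 lost both calls and gene29606 that in *VvSUC27*-OE against *VvSUC12*-OE fruits. So did gene24450 and gene25136 in *VvSUC12*-OE against *VvSUC11*-OE fruits, the latter also with all 12 libraries in 1 fit. Fitted values of gene1310 and gene24450, and those of gene25136 in *VvSUC27*-OE fruits, rest on groups at or near 0 scaled counts and depend on the pseudocount. gene5346 and gene17941 were not put through these alternatives. Each line stands for a different transgene, and line and transgene cannot be told apart.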

How the results depend on the processing

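The folds of gene18846 kept their direction and order in all settings tried. With each library left out, the fold of mean FPKM was 1410 to 1860 in *VvSUC11*-OE, 564 to 747 in *VvSUC12*-OE and 55.7 to 73.7 in *VvSUC27*-OE against WT fruits, and with library totals made equal the ratio of *VvSUC27*-OE to *VvSUC11*-OE fruits was 0.0371 in place of 0.0396. A stricter filter, a mean scaled count of 50 or more, tests fewer genes and gave 7 (*VvSUC11*-OE), 4 (*VvSUC12*-OE) and 3 (*VvSUC27*-OE) pectinesterase DEGs against the WT in place of 17, 9 and 8. It gave 4 (*VvSUC12*-OE against *VvSUC11*-OE), 3 (*VvSUC27*-OE against *VvSUC11*-OE) and 2 (*VvSUC27*-OE against *VvSUC12*-OE) in place of 9, 5 and 4. On log2(FPKM + 1), where low genes are drawn towards 0, 11 and 5 were DEGs in *VvSUC11*-OE and *VvSUC27*-OE against WT fruits, 5 between *VvSUC12*-OE and *VvSUC11*-OE and 2 between *VvSUC27*-OE and *VvSUC12*-OE fruits, where no filter also gave 2 and the cause was not tested. Over all genes, the 2817, 1626 and 2079 DEGs against the WT became 1819, 897 and 1221 with the mean of 50 and 1857, 986 and 1302 on FPKM. The 1930, 2002 and 1265 DEGs between lines became 1233, 1302 and 806, and 1154, 1295 and 760. Directions turned only for small values that were not DEGs. These were gene11228 in *VvSUC11*-OE (0.024 with equal totals, 0.017 on FPKM, -0.043 to 0.048 with a library left out) and *VvSUC12*-OE fruits (0.027, 0.021 and -0.045 to 0.046), gene29701 in *VvSUC11*-OE fruits (0.023 on FPKM, -0.164 to 0.04 with a library left out), gene18842 in *VvSUC12*-OE fruits (0.003 on FPKM) and gene7166 in *VvSUC12*-OE fruits (-0.002 to 0.041 with a library left out), all against the WT.

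Same-numbered libraries did not deviate together (correlations of -0.0348 to 0.0554 in 18 pairs), so the numbers were not taken as pairs. With the replicate number as a block, 18, 9 and 8 pectinesterase genes were DEGs against the WT, and 9, 5 and 4 between lines. Promoter motifs were not searched, since no sequences were used here. At 15 to 29 scaled counts in the WT, the WT level of gene18846 is the least precise of the 4.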
